A study of Arabidopsis thaliana with 11 samples.

Results

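Glutamine tRNAs decode the codons CAA and CAG and are encoded in the *Arabidopsis thaliana* nucleus by genes with the anticodons TTG and CTG. All entries of the methylation tables that name Gln(CTG) or Gln(TTG) were taken, and they held 3 of the 39 cytosines with a level in nuclear tRNAs: C48 and C49 of Gln(CTG), and C48 of Gln(TTG). These 2 tRNAs were among 24 with a site, and their consensus sequences stood for 16 of 257 loci. Levels came from RNA bisulfite sequencing (RBS-seq) of gel-purified tRNA, in which 5-methylcytosine (m5C) stays C while unmethylated cytosine is read as T. A level is the percentage of reads with C at a cytosine.

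All plants were *A. thaliana* of the Columbia ecotype, and the mutants carried T-DNA insertions. Experiment 1 used whole seedlings 10 days after germination. It held wild type, deposited as the authors' mean of 3 libraries, and 1 library each of *trm4a*, *trm4b-1*, *trdmt1*, *trdmt1 trm4b*, *nsun5-2* and *nop2a-2* (also named *oli2-2*). The double mutant was built from the *trdmt1* and *trm4b-1* alleles. Experiment 2 used mixed floral buds, with 1 library of wild type and 1 of *trm4b-2*, a separate insertion in the same gene. A *trm4b* allele was thus present in 3 libraries, *trm4b-1*, *trdmt1 trm4b* and *trm4b-2*, and absent from 6 columns. No genotype other than wild type seedlings had a replicate, and the number of reads behind each level was unknown beyond a stated minimum of 5.

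TRM4B is the plant homologue of yeast Trm4 and animal NSUN2, enzymes that place m5C where the variable loop meets the T stem, at positions 48, 49 and 50. Position 48 is the last base of the variable loop and usually forms a tertiary pair with base 15, which helps to hold the L shape of the tRNA. Positions 49 and 50 are the first bases of the T stem and pair with bases 65 and 64. TRDMT1, of the DNMT2 family, methylates C38 in the anticodon loop, and neither glutamine tRNA has a listed site there. TRM4A is a paralogue of TRM4B, and NSUN5 and NOP2A belong to families whose known targets are ribosomal RNAs.

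The nuclear consensus sequences are shown to place the sites, which are in capitals.
Gln(CTG): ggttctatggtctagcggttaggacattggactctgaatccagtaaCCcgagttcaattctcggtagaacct
Gln(TTG): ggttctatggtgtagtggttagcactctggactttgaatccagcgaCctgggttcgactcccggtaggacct
Both are 72 bases long, and they were identical at 58 of 72 positions (80.6%), including the first 10. Of the 16 cytosines of Gln(CTG) 2 were listed as sites, and of the 17 of Gln(TTG) 1 was. The other cytosines had no level to describe.

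The consensus of Gln(CTG) stood for 9 loci on 5 chromosomes, of which the first in the authors' TAIR10 list was AT2G16240 on chromosome 2, from 7039094 to 7039165. Gln(TTG) stood for 7 loci on 3 chromosomes, 4 of them on chromosome 1, the first being AT1G21420 on chromosome 1 from 7499733 to 7499804. All 16 loci were 72 bases long and were annotated as tRNA genes in the RefSeq table. The closest pair of loci, AT1G21420 and AT1G21800 of Gln(TTG), lay 156 kb apart. Reads were aligned to 1 consensus per tRNA, so a level is an average over its loci. The list also held a Gln(TTG) entry shared by the mitochondrial and nuclear genomes and a chloroplast entry, neither of which was named separately in the methylation tables.

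The window from position 44 to position 65, which holds the end of the variable loop and the T arm, is shown for the glutamine tRNAs, for Thr(CGT), whose C48 level was among the nearest to theirs, and for tRNAs that have listed sites at both C48 and C49 and carry the same 4 bases at positions 47 to 50 as Gln(CTG). Capitals mark listed sites.
Gln(CTG): gtaaCCcgagttcaattctcgg
Gln(TTG): gcgaCctgggttcgactcccgg
Thr(CGT): aggcCgcgagttcgatcctcgc
Asp(GTC): gtgaCCCgggttcgatccccgg
Glu(TTC): gagaCCCgggttcgattcccgg
Gly(GCC): cagaCCCgggttcgattcccgg
Gly(TCC): tagaCCCgggttcgactcccgg
The sequence ACCC at positions 47 to 50 occurred in 6 of the 24 tRNAs with a site, and C50 was listed in 5 of these 6. Gln(CTG) was the exception, as the last C of its run was not listed. Position 50 of Gln(TTG) is a T. Cytosines stood at both 48 and 49 in 11 of the 24 tRNAs. Both were listed in 6 of the 11 and C49 alone in 4, while Gln(TTG) was the 1 tRNA in which only C48 was listed. The T stem of Gln(CTG) had 4 G-C pairs and an A-T pair at 52 and 62. An A at position 52 was found in 4 of the 24, the others being Ser(GCT), Thr(CGT) and Thr(TGT). The T stem of Gln(TTG) also had 4 G-C pairs and a G-T pair between 50 and 64, and a G-T pair in this stem was found in 2 of the 24. By alignment over the whole consensus each glutamine tRNA was closest to the other. Next came Glu(TTC), at 65.8% identity with Gln(CTG) and 66.7% with Gln(TTG), the latter shared with Leu(GAG), a tRNA without a listed site.

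In wild type plants the 3 sites were high in both tissues. C48 of Gln(CTG) was at 86% in seedlings and 90% in buds. C49 of Gln(CTG) was at 98% and 92%, and C48 of Gln(TTG) at 92% and 86%. The difference of buds from seedlings was thus 4 points at the first site and -6 points at each of the others, and the median absolute difference of the 36 sites of other tRNAs was 3 points. Tissue and experiment cannot be told apart.

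The *trm4b* alleles asked whether these sites depend on TRM4B. At C48 of Gln(CTG) the 3 libraries with an allele were at 71% in *trm4b-1*, 88% in *trdmt1 trm4b* and 93% in *trm4b-2*. The columns without one were at 86% in wild type seedlings, 100% in *trm4a*, 86% in *trdmt1*, 80% in *nop2a-2* and 90% in wild type buds. The *trm4b-1* library was the lowest of the 8 columns with a value, while the other 2 lay inside the range of 80% to 100% seen without an allele. The groups overlapped.

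At C49 of Gln(CTG) the libraries with an allele were at 100% in *trm4b-1*, 88% in *trdmt1 trm4b* and 91% in *trm4b-2*. Without one, the levels were 98% in wild type seedlings, 100% in *trm4a*, 71% in *trdmt1*, 80% in *nop2a-2* and 92% in wild type buds. The lowest value came from *trdmt1*, a library with functional *TRM4B*, and all 3 libraries with an allele stood above it and above *nop2a-2*. Here too the groups overlapped.

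At C48 of Gln(TTG) the levels were 67% in *trm4b-1*, 82% in *trdmt1 trm4b* and 84% in *trm4b-2*, against 92% in wild type seedlings, 80% in *trm4a* and 86% in wild type buds. Only *trm4b-1* fell outside the range of 80% to 92% without an allele. This site was N.D. (not determined) in *trdmt1*, *nop2a-2* and *nsun5-2*, and both sites of Gln(CTG) were N.D. in *nsun5-2*. No glutamine site was among the 25 of the 39 sites with a value in every column. In *nsun5-2* 12 of the 39 sites were N.D.

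**Figure D1:**
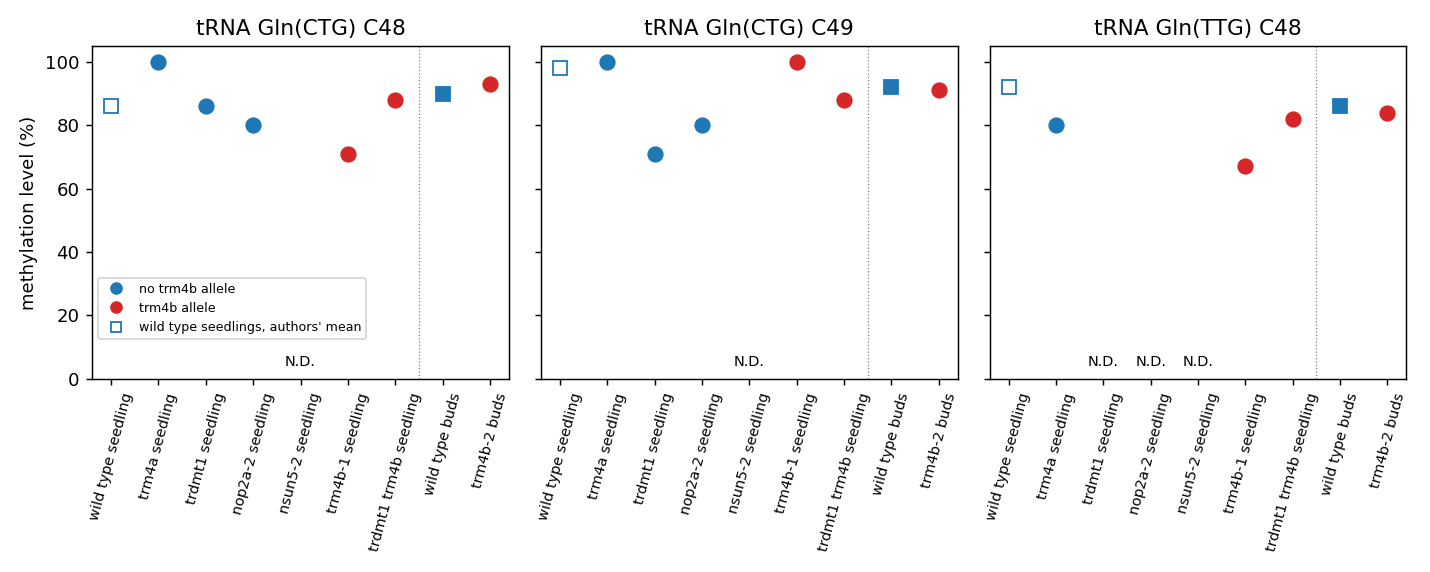
Methylation level (%) of the 3 glutamine tRNA sites in each column of the tables, seedlings left and buds right of the dotted line. Red points are libraries with a trm4b allele, blue points those without, each 1 library except the open square, the authors' mean of 3. At each site the red points overlap the blue ones, and N.D. marks columns without a value.

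The 3 libraries with an allele were set against the 5 single libraries without one, leaving out the wild type seedling mean. An exact two-sided permutation test over these libraries was used at every site with at least 2 values on each side. C48 of Gln(CTG) was at 84.0% ± 11.5 (SD, n = 3) with an allele and 89.0% ± 8.41 (SD, n = 4) without, a difference of -5 points (exact permutation p = 0.571, 0.656 after Benjamini-Hochberg adjustment over all sites). C49 of Gln(CTG) was at 93.0% ± 6.25 (SD, n = 3) and 85.8% ± 12.8 (SD, n = 4), a difference of 7.25 points (exact permutation p = 0.571, adjusted 0.656). C48 of Gln(TTG) was at 77.7% ± 9.29 (SD, n = 3) and 83.0% ± 4.24 (SD, n = 2), a difference of -5.33 points (exact permutation p = 0.8, adjusted 0.849).

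No difference at the 3 sites passed the test, the groups overlapped at each, and C49 of Gln(CTG) was the 1 site of the 31 tested with a higher mean in the libraries carrying an allele. Over those 31 sites, 22 had every library with an allele below every library without one (71%), among them 17 of the 22 tested at C48 or C49 (77.3%), and none of the 3 glutamine sites did. Of the 5 sites at C48 or C49 without such a separation, 3 were the glutamine sites and 1 was Thr(CGT) C48, at -0.6 points. The fifth, Lys(CTT) C48, differed by -19.5 points. At the threshold of 0.05 the test called 19 of the 31 sites unadjusted (61.3%) and 0 (0%) after adjustment, since the smallest adjusted p reached was 0.0583. The smallest p possible was 0.0571 at the Gln(CTG) sites and 0.2 at Gln(TTG) C48, so none of the 3 could have passed. The libraries on each side also differed in tissue and in other mutations.

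**Figure D2:**
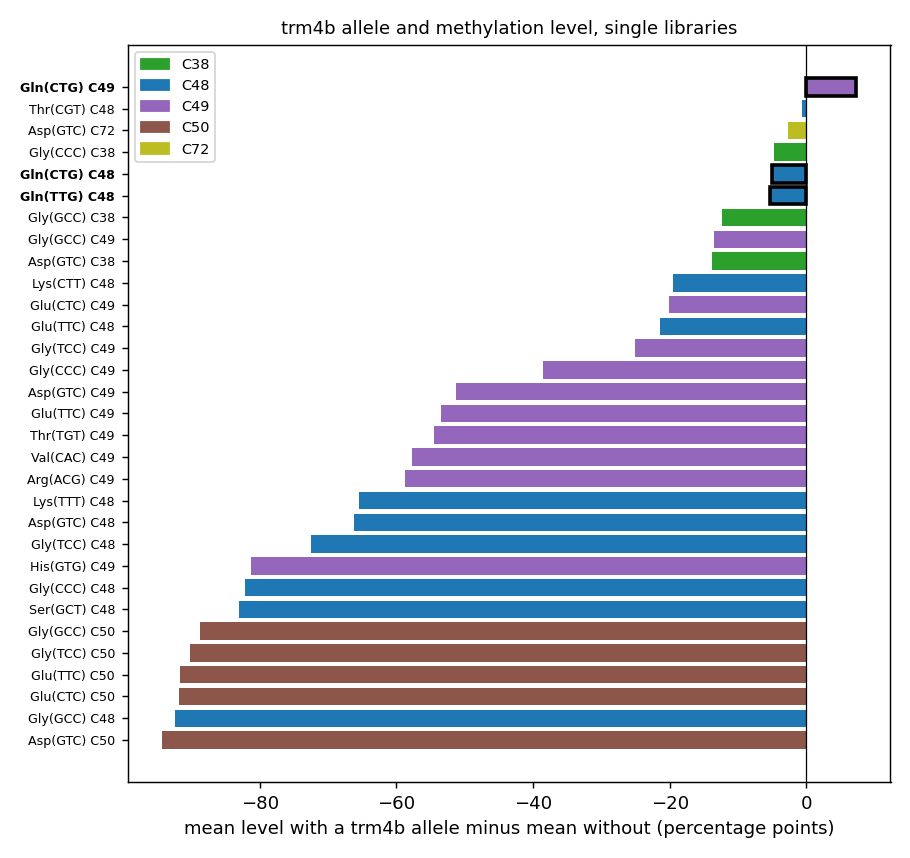
Mean level with a trm4b allele (3 libraries, 2 at Lys(TTT) C48) minus mean level without (2 to 5 single libraries), in percentage points, for the 31 sites with at least 2 values on each side, coloured by structural position. The glutamine sites, outlined with bold names, lie between -5.33 and 7.25 points near the top. C38 bars mix in the trdmt1 mutation, which was present on both sides.

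Each mutant was next compared with wild type of its own tissue. Sites whose wild type level reached 20% were sorted by the mutant level into lost (up to 5%), reduced (higher than that, with a fall of at least 20 points) and retained (all others). In *trm4b-1*, 1 of the 3 glutamine sites was reduced, C48 of Gln(TTG) at 67% against 92%, and the rule called 78.1% of all sites compared and 87% of those at C48 or C49 (81.8% at C48 and 91.7% at C49). The call of Gln(TTG) C48 ended against wild type buds and against the mean of the columns without an allele, from each of which it differed by -19 points. In *trdmt1 trm4b* it called 0 of the 3, beside 74.3% of all sites and 69.2% of those at C48 or C49 (66.7% and 72.7%). In *trm4b-2* it called 0 of the 3, beside 62.9% and 65.4% (58.3% and 71.4%). No glutamine site was lost in any mutant. As each mutant was a single library, these calls had no replicate check.

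Expressed as the percentage of the wild type level that was kept, the glutamine sites held 72.8% to 102% in *trm4b-1*, 89.1% to 102% in *trdmt1 trm4b* and 97.7% to 103% in *trm4b-2*. Their medians were 82.6%, 89.8% and 98.9%, against 7.74%, 6.59% and 19.7% at the 20, 23 and 24 other sites at C48 or C49 with a value. Over the other sites measured in every column these medians were 25.4%, 42.2% and 41.4%, and the means of all of them were 27.0%, 33.1% and 36.6%. Those other sites ranged from 0% to 101%, 0% to 112.5% and 0% to 111%. In *trm4b-1* the glutamine sites ranked 1 (C49 of Gln(CTG)), 3 (C48 of Gln(CTG)) and 5 (C48 of Gln(TTG)) among 23 sites from the most to the least kept. In *trdmt1 trm4b*, of 26, and in *trm4b-2*, of 27, C48 of Gln(CTG) ranked 2 and C48 of Gln(TTG) ranked 5 in both, with C49 of Gln(CTG) at 4 and 3. In each library 2 other sites kept at least as much as the lowest glutamine site. Thr(CGT) C48 was one of them in all 3, and the other was Gly(GCC) C49 in *trm4b-1*, Lys(CTT) C48 in *trdmt1 trm4b* and Arg(TCG) C48 in *trm4b-2*. Across the 22 other sites at C48 or C49 called in at least 2 of these libraries, 2 were retained wherever measured, Thr(CGT) C48 in 3 libraries and Ile(AAT) C48 in 2. Ile(AAT) C48 kept 75.8% in *trdmt1 trm4b* and 77.6% in *trm4b-2*, from wild type levels of 33% and 49%.

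**Figure D3:**
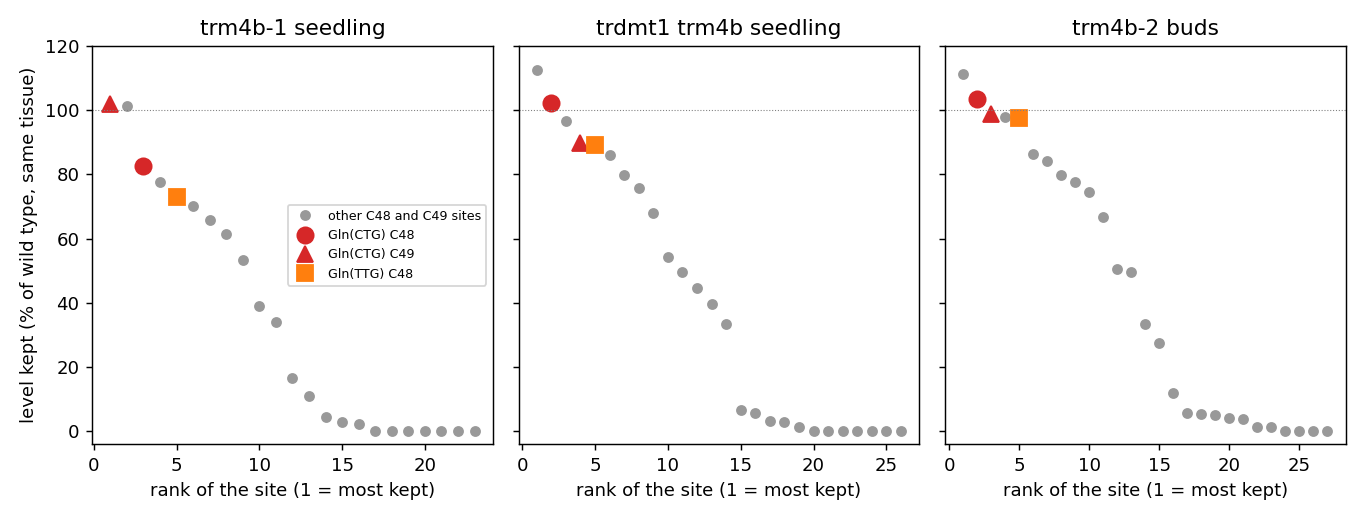
Level kept (% of wild type of the same tissue) at each C48 and C49 site in the 3 libraries with a trm4b allele, sites ranked from the most kept. The glutamine sites (coloured) rank 1, 3 and 5 in trm4b-1, 2, 4 and 5 in trdmt1 trm4b, and 2, 3 and 5 in trm4b-2.

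Among tRNAs that share bases at positions 47 to 52 with the glutamine tRNAs, some sites were lost or reduced and some retained. The 5 tRNAs with ACCC at positions 47 to 50 other than Gln(CTG) include Asp(GTC), whose C48 went from 69% to 2% in *trm4b-1*, and Gly(GCC), whose C48 went from 92% to 0%. C49 of Gly(GCC) kept 77.7% in *trm4b-1*, 86.2% in *trdmt1 trm4b* and 86.3% in *trm4b-2*. C49 of Glu(CTC), also with ACCC, kept 70.2%, 79.8% and 84.2%. Each was retained in 2 of the 3 libraries. The C49 sites of the remaining ACCC tRNAs kept less than these in every library. C49 of Asp(GTC) was at 38%, 48% and 48% and C49 of Glu(TTC) at 32%, 42% and 48%, reduced in all 3 libraries. C49 of Gly(TCC), at 62%, 64% and 75%, was retained in 1 of the 3. Gln(TTG) shared the bases ACCT at positions 47 to 50 with His(GTG), which had 1 listed site, C49, at 91% in wild type seedlings and 10% in *trm4b-1*. Of the other 3 tRNAs with A at position 52, Thr(CGT) C48 was retained in all 3 libraries, while Ser(GCT) C48 was at 2%, 5% and 0% and Thr(TGT) C49 at 0% in each of them. These matches are descriptions of the consensus and not tests.

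The libraries with an allele did not order the 3 sites alike. From *trm4b-1* to *trdmt1 trm4b*, which carries the same *trm4b* allele in the same tissue, C48 of Gln(CTG) was 17 points higher, C48 of Gln(TTG) 15 points higher and C49 of Gln(CTG) differed by -12 points. Absolute differences between these libraries at the 19 other sites at C48 or C49 had a median of 2 points, but 9 of the 19 were at 5% or less in both. At the 10 that were not, the median was 8.5 points, with 4 sites at 10 points or more and a highest of 45 at Lys(CTT) C48. The change from wild type at C48 of Gln(CTG) was -15 points in *trm4b-1* seedlings and 3 points in *trm4b-2* buds, and at C48 of Gln(TTG) it was -25 and -2 points. At C49 of Gln(CTG) it was 2 and -1 points. The 2 changes differed by 18, 23 and -3 points in this order. At the 10 other sites above 5% in either library the median absolute difference was 10 points. Of these, 6 sites were at 10 points or more, with a highest of 15. Over all 19 other sites the highest was 27 points. Allele, tissue and experiment cannot be told apart in this comparison. Without *trm4b-1*, the difference between libraries with and without an allele was 1.5 points at C48 of Gln(CTG) and 0 points at C48 of Gln(TTG), so the sign of both C48 values rested on that library.

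C48 and C49 of Gln(CTG) are neighbouring bases. They stood at the same level in 3 of 8 columns, 88% in *trdmt1 trm4b*, 100% in *trm4a* and 80% in *nop2a-2*. C49 was higher in wild type seedlings (98% against 86%), in wild type buds (92% against 90%) and in *trm4b-1* (100% against 71%). It was lower in *trdmt1* (71% against 86%) and *trm4b-2* (91% against 93%). The gap, C49 minus C48, therefore ran from -15 to 12 points without an allele and from -2 to 29 points with one. In the other 5 tRNAs with both sites the gap with an allele was 32 to 82 points, with C48 at 5% or less and C49 at 32% or more, and their 45 pairs of values held 0 equal pairs. Without an allele the gap in these 5 tRNAs ran from -20 to 78 points. In Glu(TTC) it was 70 to 78 points without an allele and narrower, 32 to 48 points, with one. In each of the others it was wider with an allele. The gaps with an allele did not overlap between Gln(CTG), at up to 29 points in *trm4b-1*, and these tRNAs, at 32 points or more. Gln(CTG) was the 1 tRNA of the 6 with both neighbours retained in all 3 libraries. Levels were whole percents, and the other 5 tRNAs had values in all 9 columns, whereas Gln(CTG) was N.D. in *nsun5-2*. Whether read depth accounts for the equal pairs was not tested, as depth was unknown.

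**Figure D4:**
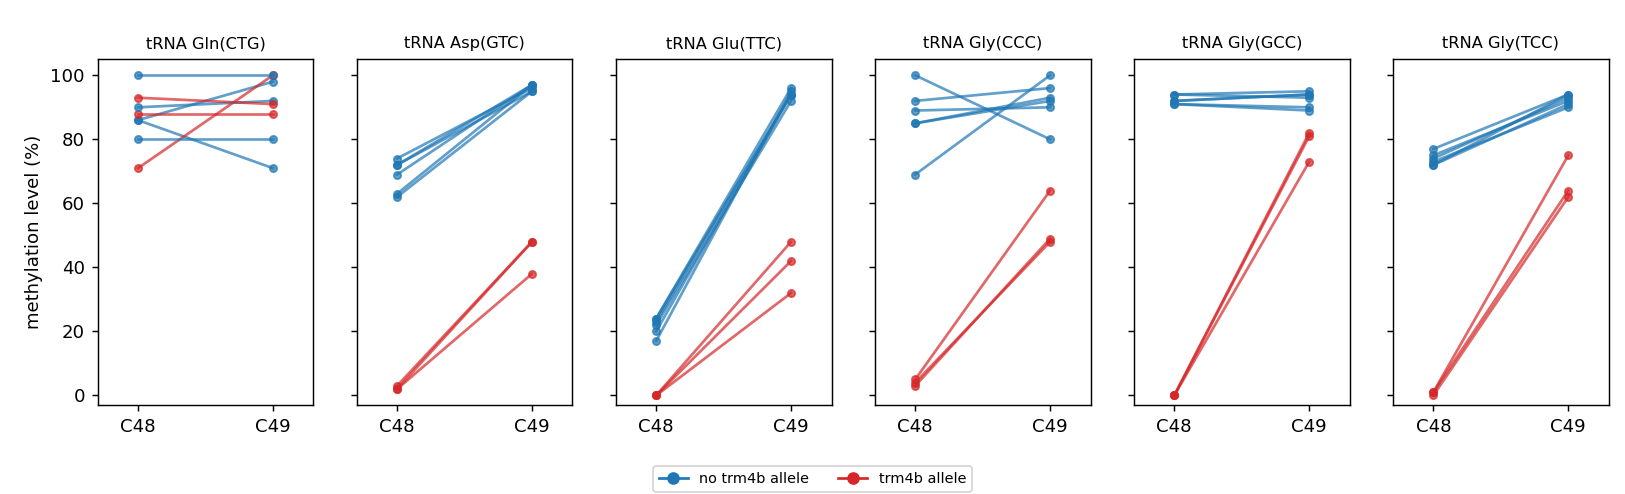
Levels (%) at C48 and C49 of the 6 tRNAs with both sites, each line 1 column of the tables, red with a trm4b allele and blue without. The red lines of Gln(CTG) run between 71% and 100%, and that of trm4b-1 starts below every blue one at C48. Those of the other 5 tRNAs start at 5% or less and rise by 32 to 82 points to C49.

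Without a *trm4b* allele the Gln(CTG) sites varied more than most. The range over the 5 columns with a value was 20 points at C48 and 29 points at C49. At the 24 other sites outside C38 with at least 4 such columns the median range was 5.5 points and the limits 2 and 43 points, with 4 sites above the range of C48 and 3 above that of C49. The largest fall of a glutamine site in any mutant was at C49 of Gln(CTG) in *trdmt1*, at 71% against 98%, the 1 glutamine site of 2 called reduced there, where the rule called 13.3% of all sites. C48 of the same tRNA was at 86% in that mutant and in wild type seedlings. The number of reads behind these levels was unknown beyond the stated minimum of 5. Whether few reads account for the ranges or for the fall in *trdmt1* was not tested. In *trm4a* the rule called 0 of 3 glutamine sites (3.33% of all sites), with C48 of Gln(CTG) 14 points above wild type and C48 of Gln(TTG) at -12 points. In *nop2a-2* it called 0 of 2 (0% of all sites), with differences of -6 points at C48 and -18 points at C49 of Gln(CTG). In *nsun5-2*, where 7.41% of all sites were called, no glutamine site had a value.

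The sites most like each glutamine site were sought by the mean absolute difference in level over at least 6 shared columns, among 29 candidates. For C48 of Gln(CTG) they were Thr(CGT) C48 at 6.25 points over 8 columns, Gly(GCC) C49 at 6.5 points and C49 of its own tRNA at 7.5 points. For C49 of Gln(CTG) they were C48 of its own tRNA at 7.5 points, Asp(GTC) C72 at 7.88 points and Thr(CGT) C48 at 8.5 points. For C48 of Gln(TTG) they were Gly(GCC) C49 at 5.67 points over 6 columns, Glu(CTC) C49 at 6 points and Thr(CGT) C48 at 7 points. Thr(CGT) C48 was in all 3 lists. Gly(GCC) C49 and Glu(CTC) C49, unlike the glutamine sites, had every library with a *trm4b* allele below every single library without one. Their mean differences were -13.5 and -20.1 points. With an allele they were at 73%, 81% and 82% and at 66%, 75% and 80%, near Gln(TTG) C48 at 67%, 82% and 84%. Their 5 single libraries without an allele spanned 6 and 2 points. Gln(TTG) C48 had only 2 such libraries, and the Gln(CTG) sites spanned 20 and 29 points over 4. The contrast thus rested largely on the libraries without an allele.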

How the data were processed

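Trimming, quality filtering and alignment were done by the authors in CLC Genomics Workbench (version: not given in the sources used). The reference was a list of consensus tRNAs made from TAIR10 (named in the submitters' processing notes), with each C replaced by T. The deposited values are percent methylation, rounded to whole percents, with N.D. where none was determined. The authors required at least 5 reads at a site and an m5C-free control transcript with nearly complete conversion. Other modified cytosines that resist bisulfite are read as m5C. The depth behind a value is unknown, so no interval or detection limit was given.

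Columns were matched to samples by genotype, with 0 columns of values left unmatched. Positions were counted from the 3′ end of each consensus, with the last base as position 73, and the base was C at 36 of 36 sites outside C38. Permutation tests enumerated all relabellings of the libraries and were tested on simulated data. Identity was taken from global alignments to the 57 other nuclear consensus sequences. The glutamine tRNAs, the lists of sites and the rules were chosen with earlier results of these data known. Other sites were named when among the 3 most like a glutamine site, when retained in every *trm4b* library where called (at least 2), or when their tRNA was among the 2 most identical; those named in comparisons of rank, sequence and neighbouring sites were chosen after their values were seen. Alternatives were other falls and ratios, the wild type of the other tissue, other baselines, medians or means, fully measured sites and leaving out each library. Python 3.11.15, numpy 2.4.6, scipy 1.17.1, biopython 1.88 and matplotlib 3.10.9 were used.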

Additional observations from a re-analysis of the deposited data

Results flagged for a closer look

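At 2 glutamine sites the changes from wild type of the same tissue had opposite signs in *trm4b-1* and *trm4b-2*. These differences were not tested because each of these mutants had 1 library. At C48 of Gln(CTG) the level was 15 points below wild type (-15) in *trm4b-1* seedlings and 3 points above in *trm4b-2* buds, a difference between the effects of 18 points. At C49 of Gln(CTG) it was 2 points above in *trm4b-1* and differed by -1 point in *trm4b-2*, a difference of -3 points. Levels without an allele spanned 20 points at C48 and 29 points at C49, more than the difference at either site. The double mutant, which shares the allele, tissue and experiment of *trm4b-1*, was 2 points above wild type at C48 and differed from it by -10 points at C49, so that these 2 libraries lay 17 and -12 points apart (double minus *trm4b-1*) and on opposite sides of wild type at both sites.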

How the results depend on the processing

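Of 101 alternatives, 27 moved a value by more than the margin set for its kind. Only differences could turn sign, 28 of them between libraries with and without a *trm4b* allele and 32 between a mutant and wild type. The others were counts, percentages kept and absolute differences. Among the differences, 4 alternatives turned the sign of a value. These were the difference at C48 of Gln(CTG) between libraries with and without a *trm4b* allele, the change there in *trdmt1 trm4b*, from 2 points to -2 against wild type buds and to -0.4 against the mean of the columns without an allele, and the change at C49 in *trm4b-2*, from -1 to 2.8 points against that mean. None of these values had passed a test or been called. The difference between libraries with and without a *trm4b* allele ran from -9.5 to 1.5 points at C48 of Gln(CTG), from 2.33 to 12 points at C49 of Gln(CTG) and from -8.5 to 0 points at C48 of Gln(TTG) when each library with a value was left out in turn. The value of 1.5 came without *trm4b-1*. Leaving out *trm4a* or wild type buds left 1 library without an allele at Gln(TTG) C48 and gave -8.33 and -2.33 points with no test, and seedlings alone gave -5.5. Adjusted p-values of the exact permutation test lay between 0.375 and 1 in the settings tested. Leaving out a library or keeping seedlings alone left fewer relabellings than the main test. No glutamine site could have passed even in the main test, so a pass was not possible in those settings. The 1 reduced site of *trm4b-1* became 2 with a fall of 10 points and 0 with a fall of 30 points, with a level below 0.5 of wild type or against wild type buds, from which Gln(TTG) C48 differed by -19 points. The 1 reduced site of *trdmt1* became 0 with a fall of 30 points or below 0.5 of wild type. With a fall of 10 points the 0 called became 2 in *trdmt1 trm4b*, 1 in *trm4a* and 1 in *nop2a-2*. The median kept at glutamine sites was 78.9% in *trm4b-1*, 95.7% in *trdmt1 trm4b* and 92.9% in *trm4b-2* against wild type of the other tissue, and the mean in *trdmt1 trm4b* was 93.8%. At other sites at C48 or C49 the median kept rose to 25.4%, 42.2% and 41.4% in these 3 libraries with sites measured in every column alone, and the means were 27.0%, 33.1% and 36.6%. No glutamine site was measured in every column, so that setting gave no value for them. The cause of these shifts was not tested. The restriction to sites above 5% in either library was chosen after seeing the data, and moved the median absolute difference at other C48 and C49 sites from 2 to 8.5 and from 6 to 10 points. No paired analysis was possible because each mutant had 1 library and wild type seedlings were given only as a mean of 3.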
